A study of Mus musculus with 10 samples.

Results

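Glo1, Dnah8, Glp1r and Btbd9 are neighbouring genes on mouse chromosome 17, at a place where the DBA/2J strain is known to carry a copy number gain. The 4 genes were chosen by symbol for that position, from 29883 genes with counts, and no copy number was measured in these samples. RNA of the nucleus accumbens (NAc) was compared between 5 ethanol-naive male C57BL/6J (B6) and 5 ethanol-naive male DBA/2J (D2) mice, killed at 9 weeks of age, with 1 poly-A library for each mouse. Both strains are inbred, so that every difference described is one between whole genomes, and each group holds mice of a single sex and age. Replicates are named by the number of the mouse within its strain.

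Glyoxalase 1, the product of Glo1, joins with glyoxalase 2 (Hagh) to clear methylglyoxal, a reactive by-product of glycolysis that modifies proteins and acts on GABA-A receptors. Expression of Glo1 in the brain has long been studied in mice in relation to anxiety-like behavior. Dnah8 encodes a heavy chain of axonemal dynein, the motor of cilia and sperm tails. Glp1r encodes the receptor for glucagon-like peptide 1, a gut and brainstem peptide that lowers food intake and is also studied for its effect on alcohol drinking. Btbd9 encodes a BTB domain protein thought to act as an adaptor of cullin 3 ubiquitin ligases, and lies at a locus linked in people to restless legs syndrome.

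In GRCm39, Btbd9 occupied chr17:30434498-30795517 on the minus strand and Glo1 chr17:30803910-30845845, also on the minus strand. Dnah8 (chr17:30843328-31096339) and Glp1r (chr17:31120525-31159765) are on the plus strand. The first annotated bases of Dnah8 therefore lie within the annotated extent of Glo1, where the genes are read in opposite directions. The canonical transcripts do not overlap, as that of Glo1 starts at 30831645 and that of Dnah8 at 30845909. The 100 bases before the start of the canonical transcript are shown for Glo1 and Dnah8, the members whose counts passed the test below. Both are from the reference genome, which is that of B6, and motif matches are in capitals.
Glo1, chr17:30831646-30831745, minus strand: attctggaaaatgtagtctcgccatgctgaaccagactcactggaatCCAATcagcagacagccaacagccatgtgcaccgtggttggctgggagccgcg
Dnah8, chr17:30845809-30845908, plus strand: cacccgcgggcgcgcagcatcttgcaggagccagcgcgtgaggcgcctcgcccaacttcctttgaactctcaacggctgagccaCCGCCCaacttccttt

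4 motifs were searched on both strands, namely the TATA box (TATAAA), the CCAAT box (CCAAT), the GC box (GGGCGG) and the core of the antioxidant response element (TGACNNNGC). The Glo1 window held 1 CCAAT box, a motif found in 21.9% of 21757 such windows of protein-coding genes. The Dnah8 window held 1 GC box on the opposite strand, found in 28.9% of windows. The windows of Glp1r and Btbd9 held none of the 4. The TATA box and the antioxidant response element were found in 5.55% and 4.68% of windows and in none of the 4 members. These are matches of letters only.

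A near-identical copy of the Glo1 coding sequence lies elsewhere in the genome, and its counts bear on those of Glo1. Glo1-ps is a processed pseudogene at chr2:35230421-35230975 on the plus strand, with no other annotated gene over it. It aligned without gaps to bases 121 to 675 of the canonical Glo1 transcript, from the start codon to the stop codon. Of 555 aligned bases 552 were identical (99.5%). A read that lies within the aligned bases and covers none of the 3 differing ones matches the gene and its copy equally well, and the counts below of either may hold reads of the other. Which bases the D2 mice carry is not known from counts.

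Counted reads lay between 96977262 and 111468080 per B6 mouse and between 104443243 and 116776714 per D2 mouse. Values are given as normalized counts, that is raw counts scaled to the mean effective library size. Of all genes, 18.3% differed between the strains at an adjusted p under 0.05 (edgeR, Benjamini-Hochberg), with 8.50% higher in D2 and 9.83% lower. A gene is said below to be called where it passed this threshold. Normalized counts did not overlap between the strains for 16.0% of genes, with D2 higher for 7.39%, and the median log2 fold change was 0.004.

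Some libraries stood apart from the rest. The summed level of 7 cortex neuron markers was 105145 and 107098 in B6 replicates 3 and 5, but 15626 to 23974 in the other 3 B6 libraries and 31668 to 71642 in D2. The marker Slc17a7, a vesicular glutamate transporter, was at 83613 and 85477 in B6 replicates 3 and 5 and at 6173 to 14039 in the other B6 mice, and made up most of the sum. Of the 7 markers, 6 were higher in B6 replicates 3 and 5 than in any other B6 library, and Cux2 was lower (5352 and 5721 against 6750 to 7387). Those 2 libraries were also the most alike of all pairs within a strain, with a mean chi-square per gene of 4.89 against 18.1 or more elsewhere. The striatal neuron markers marked the dissected tissue in every library, at a sum of 527876 to 677330 in B6 and 445125 to 538749 in D2, and 6 of 10 were called lower in D2. B6 replicate 4 stood apart in another way. Across 13 genes that were present in D2 and near 0 in B6, chosen after their values were seen, the median level in B6 replicate 4 was 5.55% of the D2 mean. In the other B6 libraries this median was 0.188% to 1.36%. The members are given below with and without B6 replicates 3 and 5. Gm10503, Gm50250, Gm41561, Gm50240 and Glo1-ps are given with and without B6 replicate 4. Other genes are given with all libraries unless stated, including some in which these libraries stood apart.

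Glo1 was higher in D2. Normalized counts of Glo1 were 7444, 7601, 7030, 7638 and 7312 in B6 replicates 1 to 5, and 14764, 13916, 14043, 13662 and 14549 in D2 replicates 1 to 5. The 5 B6 mice lay close together, as did the 5 D2 mice, and every D2 mouse was far above every B6 mouse. The means were 7405 ± 247 in B6 and 14187 ± 456 in D2 (SD, n = 5 each). The difference was 1.92-fold, or 0.94 on the log2 scale (SE 0.034, edgeR, adjusted p = 1.58e-09). The exact permutation test over mice gave p = 0.0079, the smallest that 5 against 5 can give. Glo1 was called with each mouse left out in turn, at 0.91 to 0.95. With B6 replicates 3 and 5 both left out the log2 difference was 0.91 (edgeR, adjusted p = 6.76e-09).

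The pseudogene copy Glo1-ps, named here after its values were seen, moved the same way and by more. Raw counts of Glo1-ps were 15, 7, 8, 22 and 13 in B6 and 189, 179, 181, 150 and 202 in D2. Every D2 library was above every B6 library, and the highest B6 count was that of replicate 4. The fitted difference was 3.66 on the log2 scale (SE 0.235, edgeR, adjusted p = 2.03e-07), and 3.94 without B6 replicate 4. Relative to Glo1 in the same mouse, Glo1-ps stood at 0.182% ± 0.081 in B6 and 1.22% ± 0.139 in D2 (SD, n = 5 each, exact permutation p = 0.0079). When the normalized counts of gene and copy were added together, the strain difference was 0.95 on the log2 scale, so that the copy contributed little to the total.

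Dnah8 was expressed at a low level and was higher in D2 by a larger factor than Glo1. Its normalized counts were 106, 101, 86.0, 103 and 83.3 in B6, and 351, 339, 350, 339 and 380 in D2. No D2 mouse came near the B6 range. Mean counts were 95.9 ± 10.4 in B6 and 352 ± 16.9 in D2 (SD, n = 5 each). The difference was 3.66-fold, or 1.87 on the log2 scale (SE 0.094, edgeR, adjusted p = 2.20e-08), and the exact permutation p was again 0.0079. Leaving out each mouse in turn gave 1.82 to 1.91, and leaving out B6 replicates 3 and 5 together gave 1.76. Of the 15388 genes whose mean count reached 100, Dnah8 ranked 187 by the size of its change and Glo1 ranked 473.

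Reads of Dnah8 cannot be told apart from those of some neighbours unless the strand was used in counting, which is not stated. Of the exonic bases of Dnah8, 443 are shared with the opposite-strand row Gm9937, 220 with Gm41561 and 207 with 1700097N02Rik. Dnah8 holds 27093 exonic bases in all. Of the 12815 exonic bases of Glo1, 496 are shared on the opposite strand with Gm63450, 418 with Gm50244 and 297 with Gm8373. Gm50244 had at most 2.1 normalized counts in any library. All of its 418 exonic bases lie in Glo1, so this low count cannot show how many reads are shared unless strand was used.

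Glp1r varied more between mice than the other members did. Its normalized counts were 925, 896, 297, 786 and 297 in B6, and 1576, 811, 1165, 1274 and 1338 in D2. B6 replicates 3 and 5 were the lowest of all 10 mice, and 4 of 5 D2 mice were above every B6 mouse, while D2 replicate 2 fell inside the B6 range. The means were 640 ± 317 and 1233 ± 280 (SD, n = 5 each), a coefficient of variation of 49.6% in B6 and 22.7% in D2. The fitted difference was 0.94 on the log2 scale (SE 0.316) and did not pass the threshold (edgeR, adjusted p = 0.0575). The exact permutation test of Glp1r alone gave p = 0.0238, with no adjustment over genes.

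The call for Glp1r depended on which libraries were fitted and how. Without both B6 replicates 3 and 5 the difference was 0.50 (SE 0.162, edgeR, adjusted p = 0.048). With the cortex marker level as a covariate it was 1.38 (SE 0.102, edgeR, adjusted p = 1.07e-07). Leaving out single mice gave 0.76 to 1.11, with Glp1r called without B6 replicate 1 (1.11, edgeR adjusted p = 0.0347), B6 replicate 2 (1.09, adjusted p = 0.0453) or D2 replicate 2 (1.06, adjusted p = 0.0465). It was not called without B6 replicate 3 alone (0.76, edgeR adjusted p = 0.0961) or B6 replicate 5 alone (0.76, adjusted p = 0.0946). D2 was higher in all of these fits. B6 replicates 3 and 5, lowest in Glp1r, were also highest in cortex markers and lowest in the summed levels of septum markers (7057 and 6930, against 7562 to 12373 in D2) and choroid plexus markers (2086 and 2198, against 3895 to 5154 in D2). Single markers did not all follow these sums. Trpc4, a septum marker, was at 1327 and 1376 in B6 replicates 3 and 5, against 1087 to 1417 in other B6 mice. Prdm16, also of the septum list, lay between 1861 and 1912 in all B6 mice. Clic6 made up most of the choroid plexus sum (1428 and 1556 in B6 replicates 3 and 5). Folr1, a choroid plexus marker, was highest in these libraries (8.0 and 10.3), and Ttr did not exceed 53.8 in any. The part of these tissues in the Glp1r values was not tested. In bulk tissue, fewer cells that express a gene and less RNA per cell cannot be told apart.

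**Figure D1:**
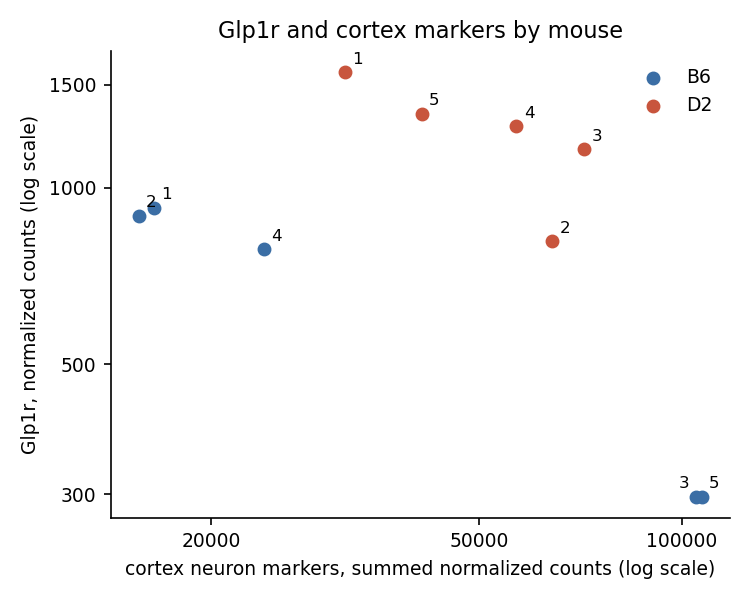
Glp1r in each mouse (normalized counts, log scale) against the summed normalized counts of 7 cortex neuron markers (log scale), with B6 in blue, D2 in red and digits for the replicate. B6 replicates 3 and 5 sit together at 297 Glp1r counts and at 105145 and 107098 marker counts, apart from the other 8 mice.

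Btbd9 did not pass the test. Its normalized counts were 5252, 5566, 4926, 5320 and 5142 in B6, and 5452, 5322, 5365, 5276 and 5390 in D2. The 5 D2 values lay within the range of the 5 B6 values. Means were 5241 ± 235 in B6 and 5361 ± 66.9 in D2 (SD, n = 5 each), a log2 difference of 0.03 (SE 0.035, edgeR, adjusted p = 0.609). Without B6 replicates 3 and 5 it was -0.006 (SE 0.034).

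**Figure D2:**
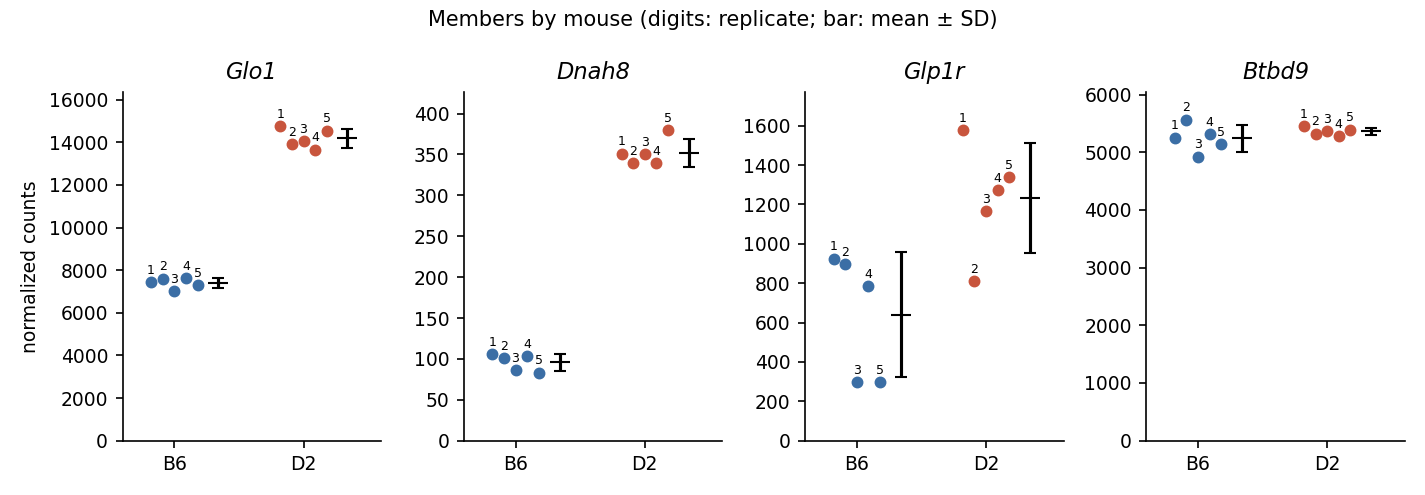
Normalized counts of Glo1, Dnah8, Glp1r and Btbd9 in each of 5 B6 (blue) and 5 D2 (red) mice, with the mean and SD in black and a linear axis from 0. Glo1 and Dnah8 are separate between strains, Glp1r overlaps through D2 replicate 2, and the D2 values of Btbd9 lie inside the B6 range.

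Of the 4 members, 2 were called, both higher in D2, where 8.50% of all genes were called in that direction. Both also showed no overlap with D2 higher, as did 7.39% of all genes. Per kb of exon, Glo1 was the most abundant member in both strains, at 578 normalized counts per kb in B6 and 1107 in D2. Btbd9 followed at 229 and 234, Glp1r at 105 and 203, and Dnah8 was lowest at 3.54 and 12.99. In B6 these levels did not overlap between any neighbours in the order. In D2, Glp1r (133 to 259 counts per kb) overlapped Btbd9 (230.1 to 237.8), so that their order differed between D2 mice.

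The members did not differ between the strains by the same factor. To compare them, the log2 ratio of 2 members was taken within each mouse, which does not depend on how libraries are scaled. Over 6 pairs, 4 differed between the strains at an adjusted p under 0.05. Dnah8 over Btbd9 rose by 1.85 from B6 to D2, Glo1 over Btbd9 rose by 0.90, and Glo1 over Dnah8 fell by 0.94 (exact permutation p = 0.0079, adjusted p = 0.0159 for each, 5 of 5 D2 mice beyond every B6 mouse). Glp1r over Btbd9 rose by 1.06 (exact permutation p = 0.0238, adjusted p = 0.0357), with 4 of 5 D2 mice above every B6 mouse. This last pair passed in only 3 of 10 fits with a mouse left out, at 0.83 to 1.24. With a mouse left out the exact test has fewer assignments, so that its smallest p is larger. Without B6 replicate 4 the pair did not pass (adjusted exact permutation p = 0.0714), although its difference was 1.17. The pairs Dnah8 over Glp1r (0.79, adjusted exact permutation p = 0.105) and Glo1 over Glp1r (-0.16, adjusted exact permutation p = 0.722) did not pass.

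Between the outer ends of Btbd9 and Glp1r the count table held 11 further rows, most of them long noncoding RNAs of low abundance. Of these, 7 were called and all 7 were higher in D2, where 18.3% of all genes were called and 8.50% were called higher. Genes with a median of 0 had been removed from the table, so that 5 of the 7 (Gm50250, Gm50252, Gm41561, Gm50248 and Gm9937), at 0 in 3 or more B6 libraries, were in it only through their D2 counts. Their number is therefore no support for a difference over the interval. The other 4, Gm6402, Gm50244, 1700097N02Rik and Gm50242, did not pass, and none of their 40 values exceeded 10.3 normalized counts.

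Gm10503, a long noncoding RNA opposite Glp1r, was the most abundant of the 11 rows in D2. Its normalized counts were 14.5, 0.0, 3.4, 88.7 and 8.2 in B6, and 1870, 1930, 1941, 1877 and 1900 in D2. B6 was close to 0 apart from replicate 4, while the D2 mice differed little from each other. The fitted log2 difference was 6.37 (SE 0.567, edgeR, adjusted p = 3.99e-06). Gm10503 is one of the 13 genes described above, and its value in replicate 4 was 4.66% of the D2 mean. Without that library the log2 difference was 8.12. The ratio of the means was 82.9 with B6 replicate 4 and 291 without it. Gm10503 and Glp1r share 123 exonic bases on opposite strands, of 6082 exonic bases in Glp1r.

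Gm50250, a long noncoding RNA inside the extent of Btbd9, had raw counts in a single B6 library. Its normalized counts were 0, 0, 0, 3.2 and 0 in B6, and 74.3, 62.5, 57.6, 85.5 and 73.4 in D2. The ratio of D2 to B6 counts was 113 (95% exact interval 38.3 to 549). With B6 replicate 4 left out, D2 was at least 90.7-fold higher, with 3 counts over the B6 group as the floor for a count of 0. These intervals and floors cover counting error only. The host gene Btbd9 did not pass in the same libraries.

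Rows on the strand opposite Dnah8 were also almost without reads in B6. Gm9937 was at 0 in every B6 library and at 12.8, 19.5, 22.7, 13.2 and 14.3 in D2, at least 26.3-fold higher. Gm41561 was at 0, 0, 0, 1.1 and 0 in B6 and at 20.2, 20.5, 24.6, 27.3 and 21.4 in D2. Its ratio was 109 (95% exact interval 19.2 to 4345), and with B6 replicate 4 left out D2 was at least 29.3-fold higher. Gm50248, within the extent of Dnah8, had 2 raw counts in all B6 libraries and 29 in D2, a ratio of 13.3 (95% exact interval 3.36 to 115).

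Gm50240 starts beside Btbd9 and is read in the opposite direction, with 254 shared exonic bases. Its normalized counts were 687, 784, 555, 665 and 612 in B6, and 1083, 1110, 1092, 1160 and 1158 in D2. No values overlapped, although Btbd9 itself did not differ. The difference was 0.76 on the log2 scale (SE 0.082, edgeR, adjusted p = 2.13e-05), and the ratio of the means with and without B6 replicate 4 was 1.70 in both cases.

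The remaining called row, Gm50252, is annotated from within Glp1r to within Btbd9. Its first exon (chr17:31142560-31142805, minus strand) lies within Glp1r and its next exon (chr17:30749128-30749339) lies in Btbd9, so that the intron between them crosses Glo1 and Dnah8. Of its 7 exons, 5 have the same coordinates as exons of Btbd9. The join is shown because it puts sequence from the extents of Glp1r and Btbd9 in 1 transcript. The last 30 bases of the first exon are in lower case and the first 30 of the second in capitals, and the final ATG is the start codon of Btbd9.
Gm50252 join, minus strand of GRCm39: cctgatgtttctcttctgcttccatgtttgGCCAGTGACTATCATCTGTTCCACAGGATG
Gm50252 was at 0 in every B6 library and at 2.8, 6.8, 3.8, 5.6 and 5.1 normalized counts in D2, at least 7.64-fold higher. Of its 1528 exonic bases, 1255 are shared with Btbd9 and 246 with Gm10503, so few bases are its own. Junction reads were not used here, and whether reads crossed the join was not tested.

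**Figure D3:**
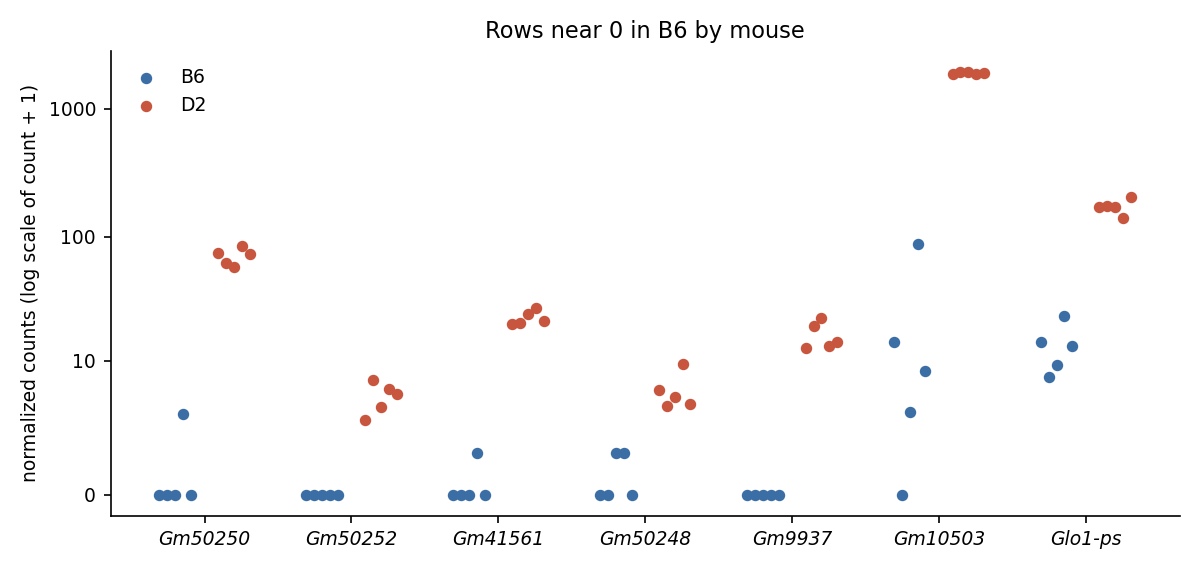
Normalized counts (log scale of count + 1) in each B6 (blue) and D2 (red) mouse for the 6 called rows near 0 in B6 between Btbd9 and Glp1r, and for Glo1-ps on chromosome 2. All D2 points lie above all B6 points in each row, and the highest B6 point of Gm10503, 88.7, is replicate 4. Gm50250, Gm50252, Gm41561, Gm50248 and Gm9937 were in the count table only through their D2 counts.

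Outside the interval the share of called rows was near that of all genes. Within 1 Mb on either side, 55 rows were counted and 8 were called (14.5%, against 18.3% of all genes), 2 higher and 6 lower in D2, with a median log2 fold change of -0.001. On the Btbd9 side 4 of 26 were called. Ppil1, a spliceosomal peptidyl-prolyl isomerase, fell from 1489 ± 79.7 to 1104 ± 30.2 (SD, n = 5 each), and Zfand3, a zinc finger gene, from 7015 ± 168 to 6162 ± 152. Of the noncoding rows, Gm16758 was lower in D2 (-0.88) and Gm50019 higher (1.25).

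On the Glp1r side 4 of 29 were called. Pde9a, a cGMP phosphodiesterase, was higher in D2 (4283 ± 176 against 3129 ± 436, SD, n = 5 each), and Cbs, which makes cystathionine from homocysteine, was lower (2668 ± 154 against 3036 ± 143). The call of Cbs was lost when libraries were scaled by total counts (-0.16, edgeR, adjusted p = 0.0675). Gm50108 had raw counts in every B6 library, 35 in all, and none in D2, so that it was in the table only through its B6 counts. Gm30571 was lower in D2 (-0.80 on the log2 scale). Members apart, 15 of 66 rows within 1 Mb were called (22.7%), and 22 of 137 within 2 Mb (16.1%).

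**Figure D4:**
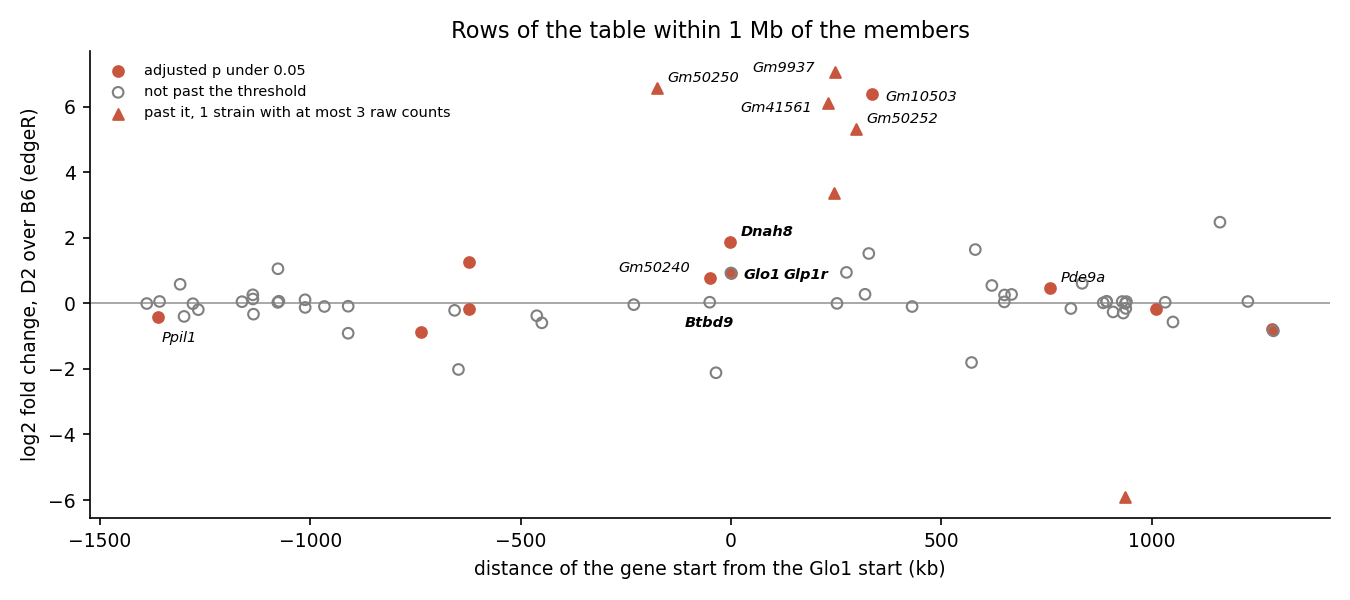
Log2 fold change of D2 over B6 (edgeR) for the rows within 1 Mb of the members, against the distance of each gene's start from that of Glo1 in kb. Starts are those of the annotated extents, for Glo1 30845845. Filled marks passed an adjusted p of 0.05, and triangles mark those of them in which 1 strain had at most 3 raw counts, whose fitted value depends on the prior count. The 6 highest values, all past the threshold, belong to rows that start between Gm50250 at -176.5 kb and Gm10503 at 336.5 kb. Of these, Gm50250, Gm50252, Gm41561, Gm50248 and Gm9937 passed the removal of genes with a median of 0 only through their D2 counts. Their high values are therefore no support for a difference over the interval. The triangle below 0 is Gm50108, which passed only through its B6 counts.

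Other genes of the members' pathways were examined in 5 lists. In the glyoxalase list, 4 of 17 genes besides Glo1 were called (23.5%, against 18.3% of all genes), 2 in each direction. The median log2 fold change of the 17 was -0.02. Gsr, which reduces oxidized glutathione, rose from 2789 ± 112 to 3274 ± 90.8 (0.23 on the log2 scale), and Ldhd, a D-lactate dehydrogenase, rose from 1271 ± 98.1 to 1667 ± 104 (0.39). Esd, which hydrolyses S-formylglutathione, fell by 0.14, as did Gclc, a subunit of the enzyme that limits glutathione synthesis (edgeR, adjusted p = 0.0197 and 0.0168). Both calls were lost when libraries were scaled by total counts. None of these changes came near that of Glo1.

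In the incretin list 2 of 9 genes besides Glp1r were called (22.2%, against 18.3% of all genes), in opposite directions. Gipr, the receptor for the other incretin, GIP, was at 546, 503, 512, 528 and 564 normalized counts in B6 and at 275, 300, 255, 264 and 267 in D2. The strains did not overlap and Gipr fell by 0.96 on the log2 scale (SE 0.070, edgeR, adjusted p = 5.98e-07), unlike Glp1r, whose values were higher in 4 of 5 D2 mice than in any B6 mouse. Vipr2, a receptor for vasoactive intestinal peptide, rose by 0.93 (SE 0.177, edgeR, adjusted p = 0.00234). Gcg, the gene of the Glp1r ligand, did not exceed 11.3 normalized counts in any library.

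In the axonemal dynein list 7 of 19 genes besides Dnah8 were called (36.8%, against 18.3% of all genes). Of the 7, 4 were higher and 3 lower in D2. The highest was Dnah6, a heavy chain, at 345, 212, 201, 470 and 255 in B6 and 2244, 3822, 2783, 3175 and 2659 in D2. Its log2 difference of 3.31 (SE 0.228, edgeR, adjusted p = 3.68e-07) was larger than that of Dnah8. Dnah2 (0.45) and Dnah11 (1.14) were also higher, and Dnah5 (1.03, adjusted p = 0.0489 in edgeR) was called but fell outside the limit of 6 names per list. Dnah7b (-1.19), the intermediate chain Dnai2 (-0.80) and the light chain Dnal4 (-0.18) were lower in D2.

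The ependymal markers, 7 genes of ciliated cells, summed to 1499, 1382, 1387, 1836 and 1464 in B6 and to 775, 2245, 1052, 2404 and 1256 in D2. D2 replicates 2 and 4, highest in these markers, were also the highest D2 mice in 6 of the 7 called dynein genes, all but Dnal4. Dnah6 was at 3822 and 3175 in these mice against 2244 to 2783 in the other D2 mice, and Dnah5 at 1013 and 1251 against 390 to 542. Between the strains, the lowest D2 value of Dnah6 was above every B6 value, while the ependymal sums overlapped. The part of ependymal cells in these values was not tested. Dnah8 did not follow that order, and stood at 339 in both of these mice, the lowest values in D2.

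In the BTB and cullin 3 list 2 of 16 genes besides Btbd9 were called (12.5%), both lower in D2. These were Kctd2, a cullin 3 adaptor (-0.33, edgeR, adjusted p = 0.00159), and Btbd16 (-0.58, adjusted p = 0.0142). Of 13 genes besides Btbd9 at restless legs loci or in iron handling, 1 was called (7.69%). Fth1, the ferritin heavy chain that stores iron, fell from 120113 ± 16085 to 88263 ± 5659 normalized counts (SD, n = 5 each), by 0.45 on the log2 scale (SE 0.083, edgeR, adjusted p = 0.002). Over all lists 16 of 74 genes were called, 21.6% against 18.3% of all genes, 7 higher and 9 lower. These shares are not matched for abundance, as 63 of the 74 had a mean of at least 100 counts, against 15388 of all 29883 genes.

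**Figure D5:**
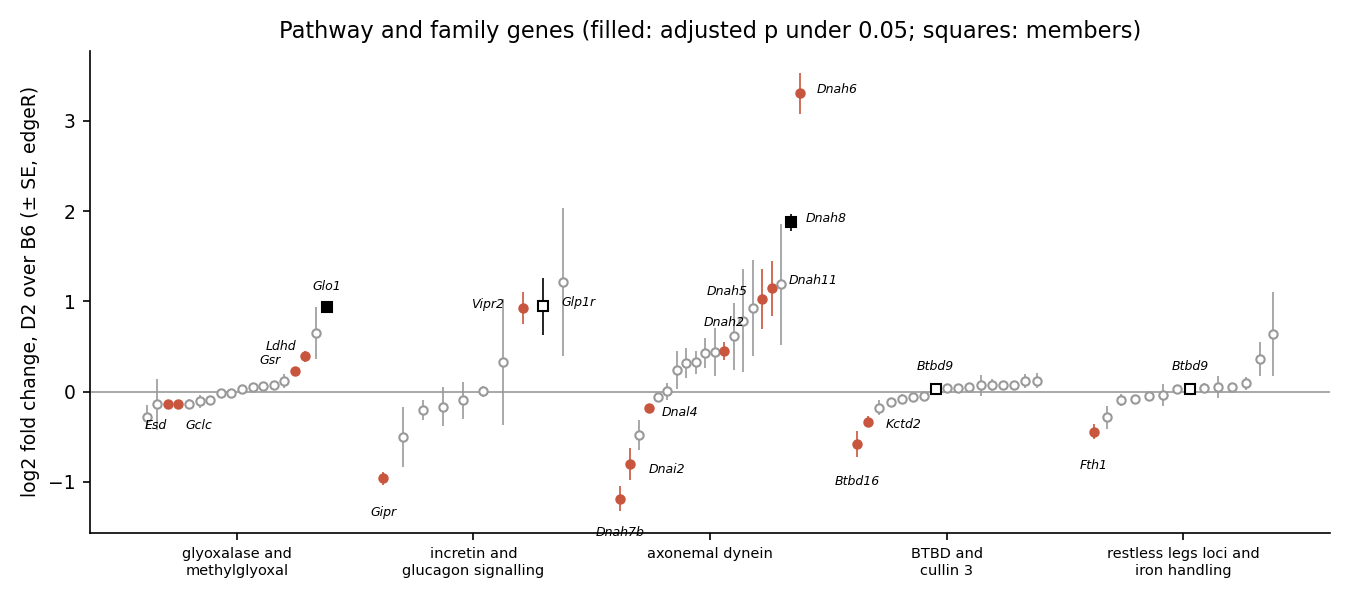
Log2 fold change of D2 over B6 with its SE (edgeR) for the genes of 5 lists, each list sorted by its values. Squares are the members, filled marks passed an adjusted p of 0.05, and Dnah6 at 3.31 is the only list gene above Dnah8.

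The genes most like each member across the 10 libraries were found by Pearson's r of log2 normalized counts, as a description that includes the strain difference. For Glo1 these were Wdfy1, Alad and Adi1, on chromosomes 1, 4 and 12 (r = 0.998 each), all higher in D2 by 1.14 to 1.41 on the log2 scale. Alad is an enzyme of heme synthesis and Adi1 one of the methionine salvage pathway. For Dnah8 they were Plvap, a gene of fenestrated endothelium, Alad and Wdfy1 (r of at least 0.998). For Glp1r they were Slc7a14 (0.993), Snx27 (0.983) and Insrr (0.981), all on chromosome 3. Slc7a14, an amino acid transporter family gene, stood at 20813 ± 2965 in B6 and 24852 ± 1264 in D2 (SD, n = 5 each). Btbd9 had no gene as close, and the highest was Entpd6 (0.933). The 10 libraries share tissue and strain, and B6 replicates 3 and 5 share the cortex marker level.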

How the data were processed

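The NAc of 5 B6 and 5 D2 mice was measured, with each mouse as a replicate. The authors trimmed reads with fastp, aligned them with STAR 2.7.10b to GRCm39, used SAMtools 1.6 and counted with featureCounts. Raw counts for each gene were deposited, genes of median 0 excepted. The lowest median over the libraries was 0.5. Whether counting used strand is not stated. The reference is that of B6, and mapping of D2 reads was not tested.

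Counts of all 29883 genes were fitted with edgeR 4.0.16 under R 4.3.3 (two-sided quasi-likelihood F test, TMM scaling, strain as factor), and p was adjusted by Benjamini and Hochberg's method across the table. The SE is the size of the log2 fold change over the root of the F statistic. Single values were compared by two-sided exact permutation over 252 assignments. Ratios between strains with few counts have exact binomial intervals, and a count of 0 was given 3 counts over the group. Per-kb levels used the summed length of annotated exons. Symbols, exons and sequences came from GENCODE vM39 (GRCm39), which matched 29519 genes and not the other 364, and is newer than the authors' annotation. Alternatives were DESeq2 1.42.0, other normalizations and filters, a replicate block, and each mouse left out. Leaving out B6 replicates 3 and 5 and the cortex covariate were added after seeing the data. Scripts were tested on simulated data.

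The members and lists were chosen with earlier results of these data known. Genes were named by rule: the members, rows between them, called genes within 1 Mb, up to 6 called genes per list by p, and the 3 genes per member with the highest r (mean of at least 100 counts). The lists lacked values for Akr1b3, Gip, Btbd11 and Btbd18. Splicing data were not used here. The bases at which Glo1-ps differs from Glo1 are not reported here.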

Additional observations from a re-analysis of the deposited data

Results flagged for a closer look

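Among 76 groups of 5 libraries tested for a sample far from the others, 4 had one, and chance gives about 1 in 20. B6 replicate 4 was the sample in 3 of these, at 88.7 normalized counts of Gm10503 (the nearest other B6 value was 14.5), 3.21 of Gm50250 and 1.07 of Gm41561, with the other B6 libraries at 0 for the last 2. The values of Gm50250 and Gm41561 rest on 3 reads and 1 read, and in a group with 4 libraries at 0 any count stands apart in this way. That of Gm10503 was 4.66% of the D2 mean, and the source of the reads was not tested. The fourth was D2 replicate 2, at 0.977 normalized counts of Gm50244, a single read where the other D2 libraries had none.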

How the results depend on the processing

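Glo1 and Dnah8 kept their direction and their call in every alternative run. Glp1r was higher in D2 in every alternative and passed the threshold with the replicate block (1.07, adjusted p = 0.0461), with B6 replicates 3 and 5 both left out (0.50, adjusted p = 0.048) and with the cortex covariate (1.38, adjusted p = 1.07e-07, all edgeR). With a mouse left out it ranged from 0.76 to 1.11 and passed in 3 of these fits, those without B6 replicate 1, B6 replicate 2 or D2 replicate 2. With DESeq2 it was 0.95 (adjusted p = 0.0579), and the cause of these shifts was not tested. Btbd9 passed in none, lay between 0.01 and 0.06 with a mouse left out, and turned to -0.006 without B6 replicates 3 and 5. Glo1 over Glp1r lay between -0.331 and 0.072 with a mouse left out, and turned positive (0.059 and 0.072) without B6 replicate 3 or 5. The labels do not state that mice of the same number were paired. Correlations of same-numbered deviations ran from -0.4 to 0.37, with 2 of 5 above 0.1, and cannot settle whether such mice shared handling. The replicate block left 4731 genes called of 5478, with Glo1 at 0.94, Dnah8 at 1.88 and Btbd9 at 0.03. With the block, 15 rows within 1 Mb and 14 list genes were called. The block also took away the calls of Dnah11 (adjusted p = 0.0698), Gm16758 (0.0556) and Gm50019 (0.08). Gm50019 lost its call with most single mice left out. Rows called within 1 Mb fell from 15 to 7 when 10 counts were required in every sample. This removes rows at 0 in B6 libraries, and also Gm50108, which was at 0 in D2, and Gm50019, which was low in B6. List genes called rose from 16 to 27 with the cortex covariate. Over all genes the count was 4532 to 7897 under the alternatives. Depth limits the rows near 0 in B6, where fold changes are bounds or wide intervals.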
